A study of Mus musculus with 16 samples.

Results

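The immediate early genes examined in liver RNA were Fos, Fosb, Jun, Junb, Egr1, Atf3, Ier2 and Cyr61, chosen by name, and all 8 were listed in at least 1 of the 2 deposited tables, which together hold 5205 genes. The 16 male C57BL6 mice fell into 4 groups of 4, namely TSP1F/F mice on a low-fat (LF) diet, TSP1F/F mice on the AMLN diet, TSP1ΔPf4 mice on the LF diet and TSP1ΔPf4 mice on the AMLN diet. The AMLN diet is rich in fat, fructose and cholesterol and is used to bring on steatohepatitis in mice, and each diet was given for 32 weeks. Both genotypes carry a floxed Thbs1, the gene of thrombospondin 1, and TSP1ΔPf4 mice also carry a Cre driven by the promoter of Pf4, a gene of platelets and their precursors, which aims the deletion at that lineage. The TSP1F/F controls were littermates, labelled WT, and the TSP1ΔPf4 mice were labelled KO. The study's animal list gives young adults without saying at which step, and the labels give no age.

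Immediate early genes are switched on within minutes of a stimulus such as a growth factor, a cytokine, stretch or injury, from factors already present in the cell and without new protein synthesis. Their transcripts are short-lived, so their level falls soon after the stimulus ends. Fos and Jun proteins pair through their leucine zippers to form AP-1, a transcription factor, and Egr1, Atf3 and Ier2 encode further nuclear regulators. Cyr61 encodes a secreted matrix-associated protein. In liver these genes are known for their quick response to partial hepatectomy, to injury and to the handling of the tissue.

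The promoters of Fos, Fosb and Cyr61 are shown because these genes were listed in both tables, with opposite directions by diet. The sequences are from RefSeq (GRCm38.p6, the mm10 assembly), in which Cyr61 is named Ccn1, and 6 of the 8 genes matched the RefSeq promoter table. Each line runs 5′ to 3′ along the strand of the gene and covers the 250 bases before the annotated start, at chr12:85473640-85473889 on the forward strand for Fos, chr7:19310046-19310295 on the reverse strand for Fosb and chr3:145649986-145650235 on the reverse strand for Cyr61. Capitals mark the motif matches.
Fos: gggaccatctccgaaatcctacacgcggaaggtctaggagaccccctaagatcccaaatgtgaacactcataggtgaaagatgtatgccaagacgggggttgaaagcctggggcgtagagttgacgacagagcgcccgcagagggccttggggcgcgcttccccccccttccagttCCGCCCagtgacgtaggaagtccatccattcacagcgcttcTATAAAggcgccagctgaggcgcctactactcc
Fosb: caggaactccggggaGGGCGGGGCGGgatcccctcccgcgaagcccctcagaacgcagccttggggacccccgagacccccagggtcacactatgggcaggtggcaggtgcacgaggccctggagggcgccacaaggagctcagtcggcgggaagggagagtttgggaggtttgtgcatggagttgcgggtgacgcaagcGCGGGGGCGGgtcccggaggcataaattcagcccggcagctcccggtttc
Cyr61: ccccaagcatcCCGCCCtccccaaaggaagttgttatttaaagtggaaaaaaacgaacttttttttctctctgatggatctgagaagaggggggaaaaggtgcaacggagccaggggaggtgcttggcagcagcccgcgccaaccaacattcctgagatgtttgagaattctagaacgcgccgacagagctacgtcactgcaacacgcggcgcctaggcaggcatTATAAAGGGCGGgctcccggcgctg
The search covered both strands of the 250 bases before and 50 bases after the start. TATAAA, the core of the TATA box, began 33 bases before the start in Fos and 25 bases before it in Cyr61, and was found in 3 of the 6 matched genes and in 13.6% of all 32851 promoters of the table. In Junb, the third, it began at the start itself rather than upstream of it. GGGCGG, the core bound by Sp1, was in 5 of the 6 and in 35.7% of all promoters, and in Fos and at the far end of the Cyr61 sequence it lies on the opposite strand. GCGNGGGCG, the core bound by Egr1, was in Fosb alone of the 6, beginning 50 bases before the start and overlapping a GGGCGG, against 5.55% of all promoters. The Cyr61 TATAAA adjoins a GGGCGG, and the first capitals of Fosb hold a pair of overlapping GGGCGG. None of the 6 held a CArG box, bound by serum response factor (1.63% of all promoters), a full cAMP response element spelled TGACGTCA (1.79%), the AP-1 site spelled TGANTCA (7.81%), the Ets core spelled CCGGAAG (8.86%) or the Stat site spelled TTCNNNGAA (8.3%) in this window. The share of bases that are guanine or cytosine was 58.7% for Fos, 68.3% for Fosb and 57.0% for Cyr61 over the same window, and the median over the table was 52.7%.

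Each table holds genes selected by the authors on its own diet comparison. The TSP1F/F table (2558 genes) listed 6 of the 8 genes, namely Fos, Fosb, Jun, Egr1, Atf3 and Cyr61, and the TSP1ΔPf4 table (3399 genes) listed 5, namely Fos, Fosb, Junb, Ier2 and Cyr61. Since listing used the diet comparison, the diet values are given as a description with no test, and a gene in 1 table has no value for the other genotype here. Values are CPM, the counts per 1000000 of the library total. In units of 1000000 counts, totals ran from 17.1 to 39.8, with group medians of 18.9 (TSP1F/F LF), 27.7 (TSP1F/F AMLN), 18.8 (TSP1ΔPf4 LF) and 27.1 (TSP1ΔPf4 AMLN), and the deepest library was TSP1F/F AMLN replicate 3. In bulk liver, fewer cells of a type and less RNA per cell cannot be told apart. Thbs1 was listed in the TSP1F/F table only, so the genotype labels were not checked against it. Of the hepatocyte markers, Ttr was listed in both tables at high levels, and its list summed to at least 1729 FPKM in every mouse.

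In TSP1F/F mice all 6 listed genes had a fitted level above that of LF-fed mice on the AMLN diet, and in TSP1ΔPf4 mice all 5 listed genes had a fitted level below it. Fos, Fosb and Cyr61 were in both tables, so their direction by diet was opposite in the 2 genotypes. Of the genes tested, 63.4% were fitted above 0 in TSP1F/F and 57.1% below 0 in TSP1ΔPf4. Among the 687 genes fitted in both tables, 32 (4.66%) were higher on AMLN in TSP1F/F and lower in TSP1ΔPf4, these 3 included, whereas 423 were higher in both, 221 lower in both and 11 had the other opposite pattern. Because the genes were picked with these directions known, nothing is read from the counts.

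**Figure D1:**
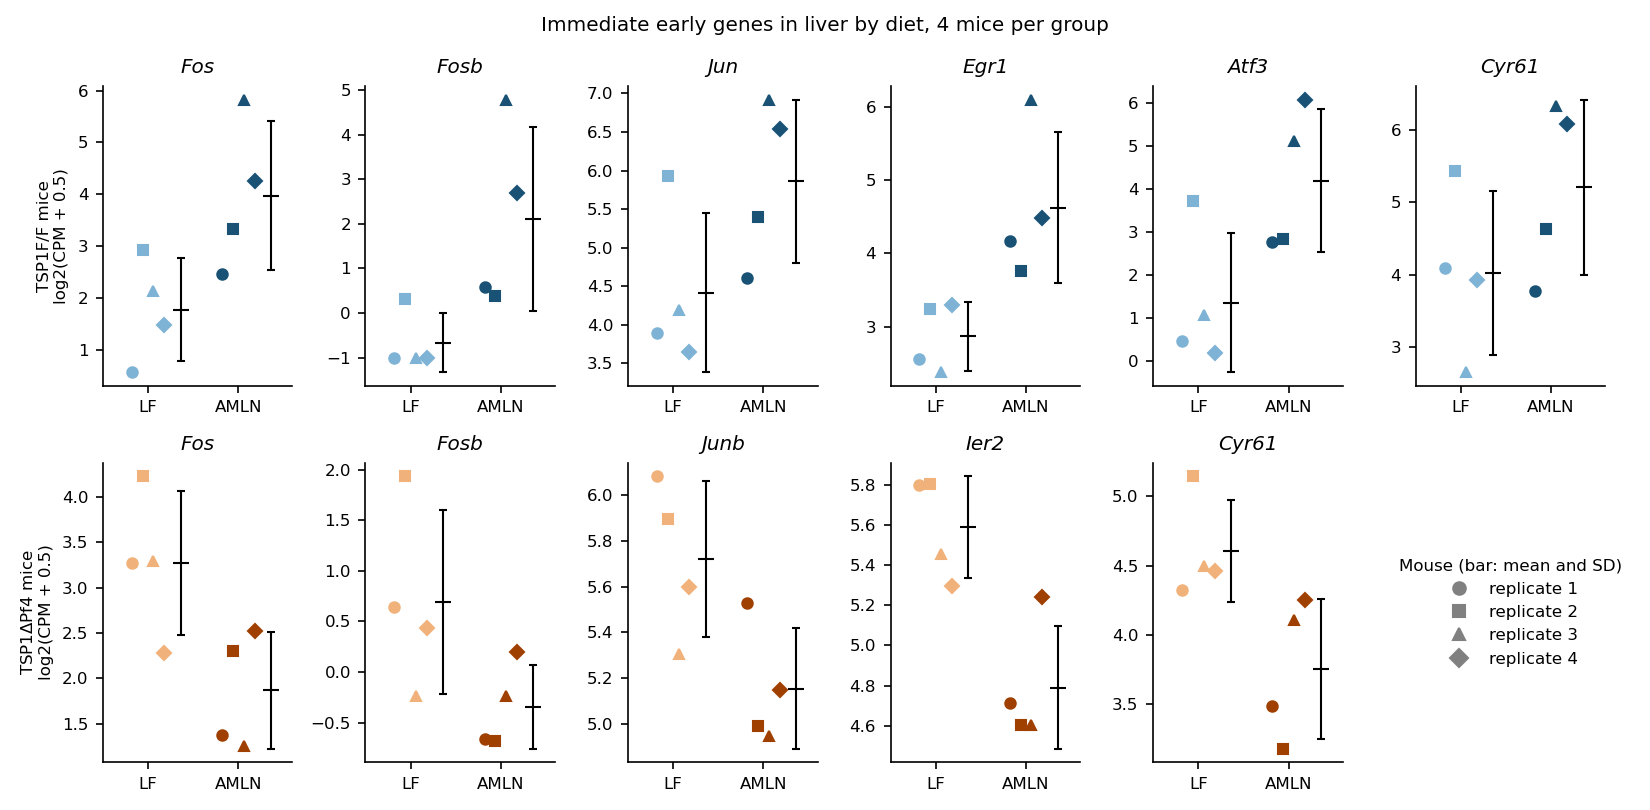
Each immediate early gene listed in the TSP1F/F table (top) and the TSP1ΔPf4 table (bottom), as log2(CPM + 0.5) per mouse by diet, with the mean and SD of the 4 mice as a bar and 1 symbol per replicate number. In the top row the AMLN means lie above the LF means, with wide spread, and in the bottom row they lie below.

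Fos (ENSMUSG00000021250, chromosome 12, 85473890 to 85477273, forward strand, mm10) encodes the founding Fos protein of AP-1. In TSP1F/F mice its level was 0.992, 7.07, 3.92 and 2.29 CPM on LF in replicates 1 to 4 and 5.05, 9.56, 56.2 and 18.6 CPM on AMLN. The highest LF mouse lay above the lowest AMLN mouse, so the groups overlapped, and AMLN replicate 3 stood well above the other three. Its log2 fold change (AMLN over LF) was 2.65 ± 0.77 (SE, n = 4 and 4), and 1.63 without AMLN replicate 3. In TSP1ΔPf4 mice Fos was 9.19, 18.3, 9.34 and 4.35 CPM on LF and 2.10, 4.44, 1.88 and 5.25 CPM on AMLN. These groups overlapped by a single LF mouse, replicate 4, and the log2 fold change was -1.60 ± 0.46 (SE, n = 4 and 4).

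Fosb (ENSMUSG00000003545, chromosome 7, 19302696 to 19310051, reverse strand) encodes a second Fos protein that is barely made in unstimulated tissue. In TSP1F/F mice its counts on LF were 0, 14, 0 and 0, that is 0.75 CPM in replicate 2 and 0 in the others. On AMLN it was 0.998, 0.808, 27.02 and 5.99 CPM, so all 4 AMLN mice lay above all 4 LF mice. Fosb had a log2 fold change of 5.56 ± 1.55 (SE, n = 4 and 4), the 17th highest of 2096 genes tested, and 3.78 without AMLN replicate 3. Without LF replicate 2 the remaining LF mice were all at 0. In TSP1ΔPf4 mice Fosb was 1.06, 3.33, 0.35 and 0.849 CPM on LF and 0.133, 0.123, 0.351 and 0.646 CPM on AMLN. These came from 6 to 69 counts on LF and 3 to 15 counts on AMLN, the groups overlapped, and counting error is large at this depth. Here the fitted change was -2.17 ± 0.76 on the log2 scale (SE, n = 4 and 4), the 39th lowest of 3089 genes tested, and -1.28 without LF replicate 2.

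Jun (ENSMUSG00000052684, chromosome 4, 95049034 to 95052222, reverse strand), the main partner of Fos in AP-1, was listed in TSP1F/F only. It was 14.4, 60.2, 17.7 and 12.05 CPM on LF and 23.7, 41.5, 119.9 and 92.2 CPM on AMLN. LF replicate 2 lay above 2 of the 4 AMLN mice. For Jun the log2 fold change was 1.41 ± 0.60 (SE, n = 4 and 4), 2.24 without LF replicate 2, where the groups no longer overlapped, and 1.01 without AMLN replicate 3.

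Junb (ENSMUSG00000052837, chromosome 8, 84974484 to 84978718, reverse strand), a Jun protein that can restrain Jun, was listed in TSP1ΔPf4 only. It was 67.4, 59.0, 39.0 and 47.9 CPM on LF and 45.6, 31.3, 30.4 and 35.0 CPM on AMLN. AMLN replicate 1 lay within the LF range, so the groups overlapped. For Junb the log2 fold change was -0.58 ± 0.23 (SE, n = 4 and 4), close to the median of all genes tested in that table, -0.54.

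Egr1 (ENSMUSG00000038418, chromosome 18, 34859823 to 34864984, forward strand) encodes a zinc finger transcription factor of growth and injury responses and was listed in TSP1F/F only. It was 5.38, 8.95, 4.69 and 9.31 CPM on LF and 17.4, 13.1, 68.3 and 21.8 CPM on AMLN. All 4 AMLN mice lay above all 4 LF mice. Egr1 had a log2 fold change of 2.09 ± 0.52 (SE, n = 4 and 4), and 1.30 without AMLN replicate 3.

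Atf3 (ENSMUSG00000026628, chromosome 1, 191170296 to 191218039, reverse strand) encodes a stress-induced bZIP factor and was listed in TSP1F/F only. It was 0.887, 12.8, 1.60 and 0.638 CPM on LF and 6.32, 6.65, 34.3 and 67.4 CPM on AMLN. LF replicate 2 lay above AMLN replicates 1 and 2, and the other three LF mice lay below every AMLN mouse. Atf3 had a log2 fold change of 2.85 ± 1.05 (SE, n = 4 and 4), 4.79 without LF replicate 2 and 1.99 without AMLN replicate 4.

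Ier2 (ENSMUSG00000053560, chromosome 8, 84661331 to 84662852, reverse strand), a small nuclear protein gene of the early growth response, was listed in TSP1ΔPf4 only. It was 55.1, 55.4, 43.4 and 38.8 CPM on LF and 25.7, 23.8, 23.8 and 37.3 CPM on AMLN. All 4 AMLN mice lay below all 4 LF mice, with AMLN replicate 4 just under the lowest. The log2 fold change was -0.80 ± 0.22 (SE, n = 4 and 4).

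Cyr61 (ENSMUSG00000028195, chromosome 3, 145646976 to 145649981, reverse strand) encodes a secreted protein that binds integrins and is a familiar target of the YAP pathway. In TSP1F/F mice it was 16.6, 42.5, 5.79 and 14.7 CPM on LF and 13.2, 24.3, 79.9 and 66.9 CPM on AMLN, and the groups overlapped widely. The log2 fold change was 1.21 ± 0.64 (SE, n = 4 and 4), close to the median of all genes tested in that table, 1.15, and it was 1.90 without LF replicate 2 and 0.81 without AMLN replicate 3. In TSP1ΔPf4 mice it was 19.5, 34.9, 22.1 and 21.6 CPM on LF and 10.7, 8.55, 16.7 and 18.5 CPM on AMLN. All 4 AMLN mice lay below all 4 LF mice, and the log2 fold change was -0.85 ± 0.29 (SE, n = 4 and 4).

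In all, 2 of the 6 genes in TSP1F/F (Fosb and Egr1) had AMLN mice wholly above LF mice, where the share of all genes tested was 36.6%. In TSP1ΔPf4, 2 of the 5 (Ier2 and Cyr61) had AMLN mice wholly below LF mice, where the share was 29.1%. Wholly separated groups in the other direction made up 15.6% of genes tested in TSP1F/F and 20.4% in TSP1ΔPf4, and held none of the 8 genes. The TSP1ΔPf4 values depended on the scale. With the authors' size factors the median of all genes was -0.52, and Ier2 (-0.78) and Cyr61 (-0.83) still did not overlap. TMM factors were computed here on the listed genes alone, which had been selected on the diet comparison. With TMM factors the median of all genes moved from -0.54 to -0.21, the groups of Ier2 and Cyr61 overlapped, and the log2 fold changes were -0.51 for Ier2, -0.55 for Cyr61 and -0.30 for Junb, whereas Fos and Fosb were at -1.32 and -1.93. All 5 were still below 0 on that scale, and all 6 were above 0 in TSP1F/F, which the listing on the diet comparison favoured.

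**Figure D2:**
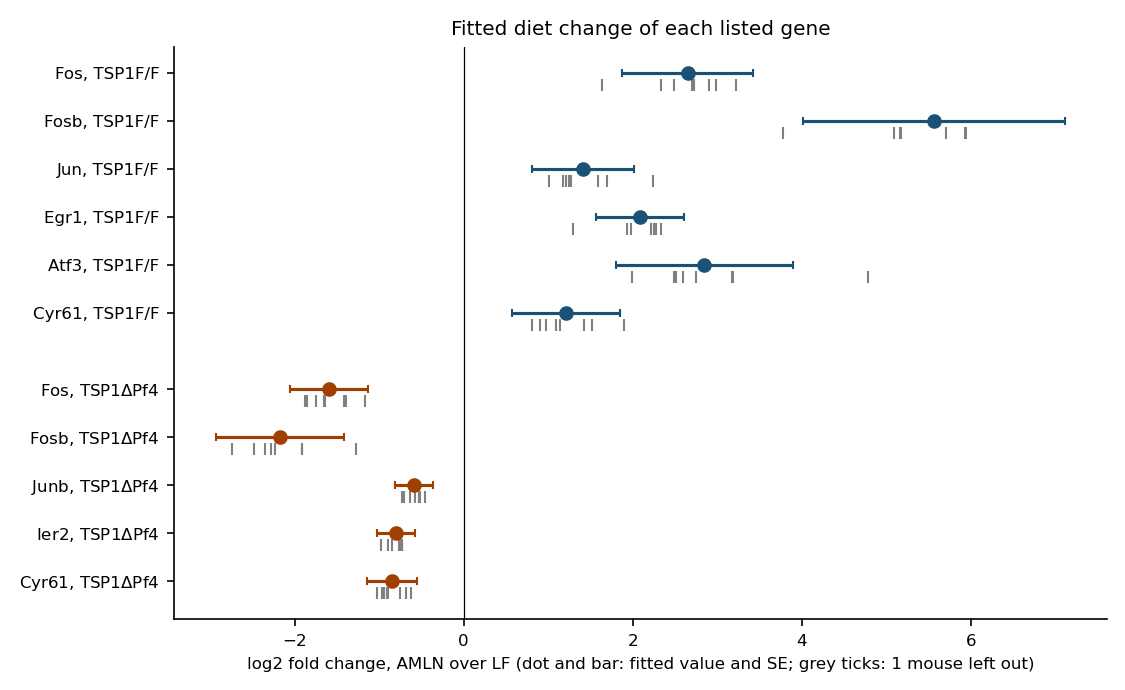
Fitted log2 fold change (AMLN over LF) of each gene with its SE, with grey ticks for fits leaving out 1 mouse. The tick of Fosb in TSP1F/F without LF replicate 2 is not drawn because the remaining LF mice were at 0. The TSP1F/F values lie between 1.21 and 5.56 and the TSP1ΔPf4 values between -2.17 and -0.58, and the ticks of each gene lie on the same side of 0.

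The order of levels between genes was read from FPKM, which is per gene length. In TSP1F/F mice Cyr61 (9.85 ± 7.82 FPKM on LF and 22.8 ± 16 on AMLN, SD, n = 4) and Jun (8.18 ± 7.17 and 21.7 ± 13.9) were highest and did not differ from each other beyond their spread. Fosb was the lowest, at 0.0300 ± 0.0601 FPKM on LF and 1.39 ± 1.99 on AMLN. In TSP1ΔPf4 mice Ier2 (31.7 ± 5.51 FPKM on LF and 18.2 ± 4.27 on AMLN) and Junb (23.2 ± 5.4 and 15.5 ± 3.04) were highest, their ranges overlapping on each diet, and Fosb was again the lowest (0.224 ± 0.212 and 0.0502 ± 0.0393).

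Within each group, 1 mouse was the highest for most of the genes. In TSP1F/F LF mice, replicate 2 was the highest for 5 of the 6 genes (Atf3, Cyr61, Fos, Fosb and Jun), whereas 19.9% of all genes tested were highest in that mouse. The median deviation of the 6 genes from their group means was 1.27 in it, on the log2(CPM + 0.5) scale, against 0.05 over all genes tested. In TSP1F/F AMLN mice, replicate 3 was the highest for 5 of the 6 (all but Atf3, which was highest in replicate 4), against 31.2% of all genes tested, and the median deviation was 1.30 against 0.06. In TSP1ΔPf4 mice, LF replicate 2 and AMLN replicate 4 were each the highest for the same 4 of the 5 genes (all but Junb), against 17.1% and 45.5% of all genes tested, with median deviations of 0.54 and 0.49. In some other mice the genes deviated in both directions, as from -0.58 to 0.44 in TSP1ΔPf4 AMLN replicate 2 and from -0.61 to 0.35 in replicate 3. All listed genes lay below their group means in TSP1F/F AMLN replicate 1 (-1.53 to -0.46) and replicate 2 (-1.73 to -0.47). The same held for TSP1ΔPf4 LF replicate 4 (-0.99 to -0.12). The spread between mice was wide in the TSP1F/F groups. Of the 6 genes, 6 on AMLN and 4 on LF had an SD above the 90th percentile of genes tested, led by Fosb on AMLN (SD 2.06 on the log2 scale, percentile 99.7) and Atf3 on LF (SD 1.62, percentile 99.6), where the median gene had 0.50 and 0.51. In TSP1ΔPf4 mice 2 of the 5 on LF and 1 on AMLN were above that percentile, and Ier2 and Junb were below the median gene in both groups.

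**Figure D3:**
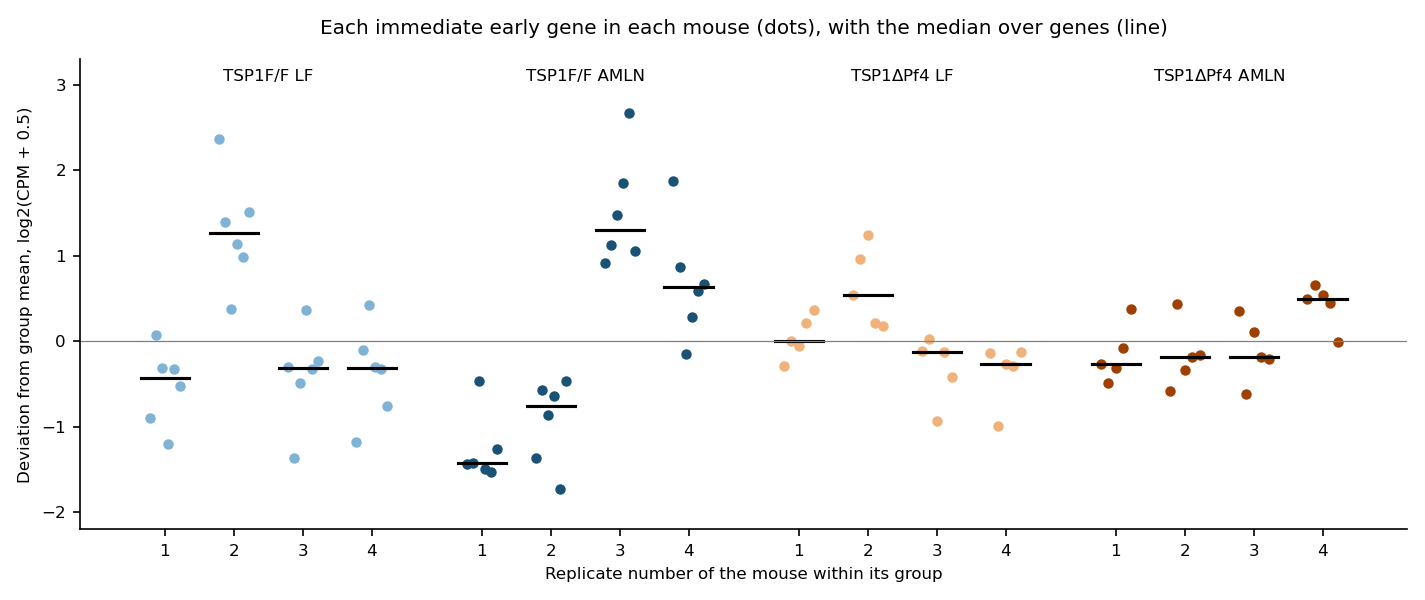
Deviation of each gene from its group mean in each of the 16 mice, on the log2(CPM + 0.5) scale, with the median over genes as a line. The lines of TSP1F/F LF replicate 2 (1.27) and TSP1F/F AMLN replicate 3 (1.30) are the highest.

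Other measures of these mice differed as well. TSP1F/F AMLN replicate 3 had the highest red blood cell sum (521 FPKM from Hba-a1 and Hba-a2, 2 of 5 markers listed, where that group ran from 106 and LF mice from 13.5 to 138) and the highest cholangiocyte sum (142 FPKM from 3 of 5 markers, where the group ran from 30.7 and LF mice from 18.4 to 35.8), and the lowest hepatocyte sum of its group (1729 FPKM from 2 of 7, where the highest was 3852). The macrophage sum, with 7 of 7 markers listed, was 355 to 1539 FPKM on AMLN and 51.5 to 392 on LF, and its highest AMLN mouse was replicate 4, not replicate 3. In TSP1F/F LF mice replicate 2, the mouse with the high immediate early genes, had 131 FPKM of macrophage markers, and the highest was replicate 3. That replicate 2 was the highest of its group for the cholangiocyte sum (35.8 FPKM, where the group ran from 18.4), the stellate and fibroblast sum (3.52 FPKM from 5 of 7 markers, where the group ran from 1.53), the neutrophil sum (1.98 FPKM from 2 of 7, where the group ran from 0.457) and Pf4, the 1 of 5 platelet markers listed (1.19 FPKM, where the group ran from 0). The same mouse was the lowest of its group for the B cell marker Cd79b (0.674 FPKM) and the T cell sum (0 FPKM from 2 of 6). For the red blood cell (31.5 FPKM, group highest 138), endothelium (4.47, highest 4.51) and hepatocyte sums (5392, highest 5487) it was not the highest. On AMLN the stellate and fibroblast sum was also highest in replicate 3, at 20.5 FPKM, where the group ran from 11.3. In TSP1ΔPf4 mice the macrophage sum, from 6 of 7 markers, was 45.3 to 111 FPKM on LF and 135 to 210 on AMLN, higher on AMLN although the 5 immediate early genes were lower. Its highest AMLN mouse was replicate 4, the mouse highest for 4 of those 5 genes. That mouse was also the highest for the hepatocyte sum (12286 FPKM) and the lowest for the stellate and fibroblast sum (3.16 FPKM, group highest 13.2). For the T cell, endothelium, cholangiocyte and red blood cell sums it was neither. TSP1ΔPf4 LF replicate 2, highest for the same 4 genes, had 54.1 FPKM of macrophage markers (group highest 111). It was the highest of its group for none of these sums. None of these listed markers was at 0 throughout a group. Their part in the immediate early gene values was not tested.

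The genes most like the member with the largest SD of log2(CPM + 0.5) over all 8 mice of each table, both diets included, were found by the mean absolute difference in centred log2(CPM + 0.5) over the 8 mice. In TSP1F/F the reference was Atf3, and of 1987 genes Sema3c (0.557), Btg2 (0.579), Rgs1 (0.639), Thbs1 (0.649) and Upk3b (0.669) were nearest. Btg2 and Rgs1 are themselves immediate early genes, and Sema3c, Btg2, Thbs1 and Upk3b were, like 5 of the 6 genes, highest in AMLN replicate 3. Jun, Fosb and Fos ranked 14th, 16th and 17th, and Cyr61 and Egr1 46th and 92nd. In TSP1ΔPf4 the reference was Fos, and of 2978 genes Cyp2c54 (0.330), Gm45051 (0.334), Igfbp1 (0.357), mt-Rnr2 (0.375) and Stard4 (0.377) were nearest, while Ier2 and Fosb ranked 70th and 85th and Cyr61 and Junb 554th and 817th. The 8 mice hold both diets, so genes that merely share the diet direction rank high on this measure.

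The genotypes were compared on each diet for Fos, Fosb and Cyr61, the genes listed in both tables, in a fit over all genes shared by the tables. On the AMLN diet all 3 were lower in TSP1ΔPf4 mice than in TSP1F/F mice. Fosb differed most, with a log2 fold change of -4.80 ± 1.09 (SE, n = 4 and 4, edgeR quasi-likelihood test, Benjamini-Hochberg adjusted p = 0.0182), and all 4 TSP1ΔPf4 mice lay below all 4 TSP1F/F mice, which held for 12.4% of genes tested. Fos was at -2.71 ± 0.66 (edgeR adjusted p = 0.0232), with an overlap of 1 mouse on each side, at 5.05 CPM in TSP1F/F and 5.25 CPM in TSP1ΔPf4. Cyr61 was at -1.76 ± 0.51 (edgeR adjusted p = 0.0480), where TSP1ΔPf4 mice reached 18.5 CPM and the lowest TSP1F/F mouse was at 13.2 CPM.

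Of 733 genes tested, 8.46% (62) were called lower in TSP1ΔPf4 on AMLN and 0.546% (4) higher, and with TMM factors 37 were called lower and 11 higher. The comparison shares its mice with the diet comparisons that listed the genes, and a gene listed as higher in one table and lower in the other is thereby favoured to differ. Among the 32 genes with that pattern, which include these 3, 75.0% were called lower, 65.6% had wholly separated mice and the median log2 fold change was -2.32, so the calls of Fos, Fosb and Cyr61 were not unusual for it. All 3 values rested in part on TSP1F/F AMLN replicate 3. Without it the log2 fold changes were -1.70 for Fos, -3.03 for Fosb and -1.35 for Cyr61, with edgeR adjusted p of 0.0917, 0.0885 and 0.150, and none was called. Over the 8 fits that each left out 1 mouse, Fosb was called in 5, Fos in 4 and Cyr61 in 2. The calls were also lost without TSP1ΔPf4 AMLN replicate 1 (edgeR adjusted p = 0.0717 for Fos, 0.0550 for Fosb and 0.127 for Cyr61) or replicate 2 (0.0665, 0.0665 and 0.152). Fos and Cyr61 were lost without TSP1ΔPf4 AMLN replicate 3 (edgeR adjusted p = 0.0620 and 0.0838), and Cyr61 alone without TSP1F/F AMLN replicate 4 (0.139) or TSP1ΔPf4 AMLN replicate 4 (0.0604). With TMM factors Cyr61 was not called (edgeR adjusted p = 0.0949), nor in 1 fit over all 16 mice (0.0640).

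On the LF diet the fitted differences went the other way. Fos was at 1.53 ± 0.59 and Fosb at 2.91 ± 1.32 (log2, TSP1ΔPf4 over TSP1F/F, SE, n = 4 and 4, edgeR adjusted p = 0.676 for both), and Cyr61 at 0.30 ± 0.49 (edgeR adjusted p = 0.845). None passed, and edgeR called 0 of 640 genes tested in either direction (0.0% called), with 44 at an unadjusted p under 0.05, while DESeq2 called 1. By mouse, Fos was 4.35 to 18.3 CPM in TSP1ΔPf4 and 0.992 to 7.07 CPM in TSP1F/F on this diet, and Fosb 0.35 to 3.33 against 0 to 0.75 CPM. Both pairs of groups overlapped, where 3.44% of genes tested had TSP1ΔPf4 mice wholly above. With 1 mouse left out, Fos ran from 1.10 to 2.10 and Fosb from 2.01 to 7.81, both lowest without TSP1ΔPf4 LF replicate 2 and highest without TSP1F/F LF replicate 2, where the remaining Fosb counts of TSP1F/F were 0 and the fitted value depends on the prior count. Without TSP1F/F LF replicate 2 the TSP1ΔPf4 mice lay wholly above for Fos, Fosb and Cyr61. That mouse was the highest of its group for these genes, so leaving it out favours such a separation. In that fit 44 of 648 genes tested lay wholly above. None of Fos, Fosb and Cyr61 was called (edgeR adjusted p = 0.672, 0.446 and 0.672).

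**Figure D4:**
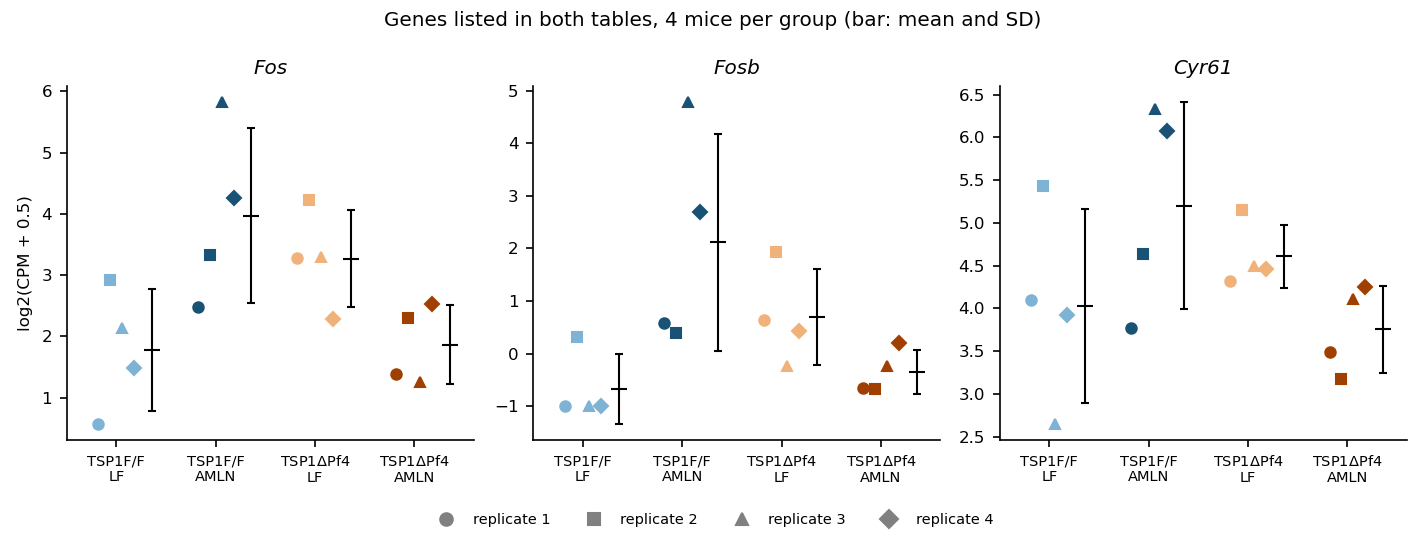
Fos, Fosb and Cyr61 in the 4 groups as log2(CPM + 0.5) per mouse, with the mean and SD as a bar and 1 symbol per replicate number. The TSP1F/F AMLN group has the highest mean for each gene, and TSP1ΔPf4 LF mice have the next highest.

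Ordered by mean, Fos was 3.42 ± 1.68 CPM in TSP1ΔPf4 AMLN, 3.57 ± 2.63 in TSP1F/F LF, 10.3 ± 5.80 in TSP1ΔPf4 LF and 22.4 ± 23.2 in TSP1F/F AMLN (SD, n = 4). Fosb followed 0.188 ± 0.375 in TSP1F/F LF, 0.313 ± 0.245 in TSP1ΔPf4 AMLN, 1.40 ± 1.32 in TSP1ΔPf4 LF and 8.70 ± 12.4 in TSP1F/F AMLN. Cyr61 was 13.6 ± 4.76 in TSP1ΔPf4 AMLN, 19.9 ± 15.8 in TSP1F/F LF, 24.5 ± 7.03 in TSP1ΔPf4 LF and 46.1 ± 32.3 in TSP1F/F AMLN. In each order, the ranges of neighbouring groups overlapped. The difference between the diet responses (TSP1ΔPf4 minus TSP1F/F, log2) was -4.24 ± 0.98 for Fos, -7.72 ± 1.82 for Fosb and -2.06 ± 0.77 for Cyr61 (SE, 16 mice), given with no p because listing used both responses. With 1 mouse left out it ran from -4.81 to -3.23 for Fos, from -12.9 to -5.94 for Fosb and from -2.75 to -1.65 for Cyr61, smallest in size without TSP1F/F AMLN replicate 3 and largest without TSP1F/F LF replicate 2, where Fosb again depends on the prior count. Over all 734 genes edgeR called 3 (0.409%) lower and 0 higher in that difference, and none of these 3 was Fos, Fosb or Cyr61. With TMM factors 7 were called lower and 8 higher, Fos and Fosb being among those called lower, as they were with DESeq2. In edgeR both genes lay just above the adjusted p threshold in the main fit and just below it with TMM factors, a negligible difference. The calls of Fos and Fosb are not read as support, because their listing in opposite directions favoured such a difference in advance.

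Related genes were followed through lists. Of the 3 other Fos and Jun genes, only Fosl2 was listed, in both tables, and its log2 fold change by diet was 1.57 ± 0.63 in TSP1F/F and 0.89 ± 0.30 in TSP1ΔPf4, with overlapping mice (SE, n = 4 and 4). Its fitted direction was thus the same in both genotypes, unlike that of Fos and Fosb. On AMLN it differed between the genotypes by -0.26 ± 0.38 (edgeR adjusted p = 0.720). Of 29 bZIP genes whose proteins can pair with AP-1 members, 3 were listed in TSP1F/F and 4 in TSP1ΔPf4. In TSP1F/F Mafk (0.80) and Batf3 (1.84) had AMLN mice wholly above LF mice (36.6% of all genes tested), and Crem (-0.75) overlapped. In TSP1ΔPf4 Mafk (0.96) lay wholly above (20.4% of all genes tested), and Crem (-0.84), Atf6 (0.55) and Jdp2 (1.81) overlapped.

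Among 8 other Egr and Nr4a factors and cofactors, 3 were listed in TSP1F/F and 1 passed the filter on low counts. This was Egr2, a zinc finger factor close to Egr1, which was at 0 in all 4 LF mice and at 0.653 to 2.77 CPM on AMLN, at least 8.98-fold higher with 3 counts per library taken as the floor. In TSP1ΔPf4 2 were listed. Nr4a1, an orphan nuclear receptor gene that is itself immediate early, was lower on AMLN by a log2 fold change of -1.86 ± 0.36, with no overlap (29.1% of all genes tested). The other, Nab1, was fitted higher (0.44 ± 0.19), with overlap. Of 27 other immediate early regulators, 7 were listed in each table. In TSP1F/F 6 of the 7 were fitted above 0 (median 2.14, against 63.4% and 1.15 for all genes tested), and 4 had AMLN mice wholly above LF mice (36.6% of all), namely Myc (2.94 ± 0.59), Klf6 (2.22 ± 0.49), Ier5 (1.09 ± 0.40) and Zfp36 (0.79 ± 0.30). In TSP1ΔPf4 4 of the 7 were fitted below 0 (median -0.66, against 57.1% and -0.54 for all genes tested), Csrnp1 lay wholly below (-0.92 ± 0.30) and Klf9, a gene of hormone and clock control, wholly above (0.69 ± 0.27). Klf6, listed in both, was called lower in TSP1ΔPf4 on AMLN (log2 fold change -1.42 ± 0.38, edgeR adjusted p = 0.0333), as were 8.46% of all genes tested.

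Of 35 immediate early signalling and secreted genes, 10 were listed in TSP1F/F, and all 9 that passed the filter were fitted above 0 (median 2.48, against 63.4% and 1.15 for all genes tested). Of these, 5 had AMLN mice wholly above LF mice (36.6% of all genes tested), among them Ctgf (2.48 ± 0.60), a secreted relative of Cyr61, Rgs2 (2.08 ± 0.48), Tnfaip3 (1.67 ± 0.47), and Dusp8, which was at or under the floor on LF and at least 14.7-fold higher. In TSP1ΔPf4 9 were listed and 8 tested, 5 fitted above 0 (42.9% over all genes tested) and 3 below (median 0.94 against -0.54), and Dusp8 (3.23 ± 0.81), Tnfaip3 (1.55 ± 0.38) and Rgs2 (1.40 ± 0.41) lay wholly above (20.4% of all genes tested). These 3 genes were thus fitted higher on AMLN in both genotypes, unlike Fos, Fosb and Cyr61. Of these 3, Rgs2 was called lower in TSP1ΔPf4 on AMLN (-1.14 ± 0.29, edgeR adjusted p = 0.0299), where 8.46% of all genes tested were. Tnfaip3 and Dusp8 were not called (-0.96 ± 0.39, edgeR adjusted p = 0.146, and -0.40 ± 0.65, edgeR adjusted p = 0.739).

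Genes known as targets of AP-1 or Egr1 were also counted. Of 24, 16 were listed in TSP1F/F, all fitted above 0 (median 2.67), and 11 had AMLN mice wholly above LF mice. Of all genes tested there, 63.4% were fitted above 0 and 36.6% lay wholly above, with a median of 1.15. These include Mmp12 (6.14 ± 1.14), Itgax (5.47 ± 0.95), Mmp13 (5.22 ± 1.18) and Timp1, which was at 0 in all LF mice and at least 24.6-fold higher on AMLN. In TSP1ΔPf4 9 were listed, all fitted above 0 (median 1.37, against 42.9% and -0.54 for all genes tested), and 7 lay wholly above (20.4% of all), led by Mmp12 (3.45 ± 0.37), Itgax (2.40 ± 0.66), Ccl2 (2.26 ± 0.90) and Mmp13 (1.73 ± 0.70). Their direction in TSP1ΔPf4 was therefore the opposite of that of the 5 immediate early genes listed there. On AMLN all 9 shared targets were fitted lower in TSP1ΔPf4 (median -1.14 against -0.38 for all genes tested), and 3 were called (8.46% of all genes tested), the matrix metalloproteinase genes Mmp12 (-3.71 ± 0.50, edgeR adjusted p = 0.00268) and Mmp13 (-2.31 ± 0.51, adjusted p = 0.0182) and the chemokine gene Ccl2 (-2.42 ± 0.55, adjusted p = 0.0182). Mmp12, Itgax and Ccl2 are also expressed by macrophages, whose summed markers were 355 to 1539 FPKM in TSP1F/F AMLN mice (7 markers listed) and 135 to 210 in TSP1ΔPf4 AMLN mice (6 listed), and the part of these cells was not tested.

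Upstream genes were seldom listed. Of 35 genes of the MAP kinase and serum response factor input to immediate early genes, 3 were listed in TSP1F/F, where Egfr lay wholly lower on AMLN (-1.17 ± 0.36), and 4 in TSP1ΔPf4, where Hras lay wholly lower (-0.84 ± 0.24) and Mapk14 wholly higher (0.64 ± 0.18). None was in both tables. Of all genes tested, 15.6% lay wholly lower in TSP1F/F. In TSP1ΔPf4 29.1% lay wholly lower and 20.4% wholly higher. Of 13 heat shock and handling stress genes, 3 were listed in each table. In TSP1F/F Cirbp, a cold-induced RNA-binding protein gene, lay wholly lower on AMLN (-0.61 ± 0.27), and in TSP1ΔPf4 Rbm3, a gene of the same kind, lay wholly lower (-1.09 ± 0.23) and Hspb1, a small heat shock protein gene, wholly higher (1.44 ± 0.38). Only 2 genes of this list were tested between the genotypes, and neither was called. Of all genes tested, 8.46% were called lower and 0.546% higher on AMLN, and 0.0% on LF. In TSP1ΔPf4 mice 1 of the 2 lay wholly higher on AMLN, as did 19 of 733 genes tested. On LF 1 of the 2 lay wholly lower, as did 10 of 640. Each list's genes outside the tables have no value here, so a low count does not mean that the rest of a list did not move.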

How the data were processed

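Liver RNA of 16 mice was sequenced by Novogene on a NovaSeq instrument. The paper names STAR 2.7.8a as the aligner and the submitters' processing notes name HISAT2, both with mm10. The counting program, annotation release and strand setting are not given in the sources used here. The authors deposited 2 tables with raw counts, normalised counts (a signal, each count divided by 1 size factor per library) and FPKM per mouse, and their own fold changes and p-values by DESeq2. Only the range of the deposited p-values was read, since each table holds genes with p below 0.05, and the fold changes were not used.

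Library totals were computed from count, gene length and FPKM, and CPM from them. Spread was fitted on genes the authors had selected, so each p is conditional on that selection. The members and lists were chosen with earlier results of these data known. Fits over all genes of a table, or over the genes in both tables, used edgeR 4.0.16 in R 4.3.3 (filterByExpr, quasi-likelihood, prior count 0.125), with Benjamini-Hochberg adjustment. A gene was called at adjusted p below 0.05 and an absolute log2 fold change above 0.25. The SE is the log2 fold change divided by the root of F. Named genes were all 8 members, up to 4 per list and comparison with the largest change among those apart or called, and the 5 nearest to 1 member per table; other genes were named after their values were seen. Replicates are separate mice by the labels, and replicate numbers were not taken as pairs. No pair of libraries had identical counts. TMM, DESeq2 1.42.0, the authors' size factors, no filter, a prior count of 2, a replicate block, 1 fit over 16 mice and leaving out each mouse were the alternatives. Each SE and SD includes the spread between mice, whereas the floors cover counting error only.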

Additional observations from a re-analysis of the deposited data

Results flagged for a closer look

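Of 22 groups of 4 mice (each gene in each of its groups), 6 held a mouse whose CPM lay far from the other 3 by Dixon's test. Chance gives this in about 1 in 20 groups only where values follow a normal distribution, which CPM need not do. The flag of Fosb was fixed in advance, because the other 3 mice of its group were at 0. The number of flags is therefore not read as an excess. Atf3 (12.8 CPM), Jun (60.2 CPM) and Fosb (0.75 CPM) were flagged in the same mouse, TSP1F/F LF replicate 2, and they are not independent of each other. Egr1 (68.3 CPM) was flagged in TSP1F/F AMLN replicate 3, Cyr61 (34.9 CPM) in TSP1ΔPf4 LF replicate 2 and Ier2 (37.3 CPM) in TSP1ΔPf4 AMLN replicate 4. Each of these values was the highest of its group.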

How the results depend on the processing

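All 6 genes stayed above 0 in TSP1F/F and all 5 below 0 in TSP1ΔPf4 by diet under every alternative run. Listing on this same comparison in the same mice favoured a stable sign in advance, so it is not read as support. The cause of the changes given here was not tested. Listed genes with separated mice numbered 768 higher and 328 lower in TSP1F/F (TMM 607 and 536, DESeq2 476 and 594), and 629 higher and 899 lower in TSP1ΔPf4 (TMM 858 and 490, DESeq2 840 and 496, with 1 mouse left out 649 to 1080 and 929 to 1389, most without AMLN replicate 4). With TMM or DESeq2 factors, both computed on the listed genes alone, Ier2 and Cyr61 overlapped in TSP1ΔPf4, and with DESeq2 Fosb overlapped in TSP1F/F. With the authors' size factors none of these overlapped. Between genotypes on AMLN 4 genes were called higher and 62 lower (TMM 11 and 37, DESeq2 17 and 56, 1 fit over 16 mice 7 and 47), with 1 to 4 higher and 21 to 81 lower when 1 mouse was left out. The same-number correlations ran from 0.0931 to 0.397 there, from -0.0524 to 0.481 on LF and from -0.472 to 0.289 by diet, with 6, 5 and at most 2 of 8 mice nearest their own number. The numbers were not taken as pairs because in no comparison was every correlation over 0.1. On AMLN between genotypes every correlation was positive and the lowest, 0.0931, was just under that cut. The cut therefore does not settle whether mice of the same number are linked. A replicate block gave 13 higher and 103 lower, and Fos, Fosb and Cyr61 stayed called (-2.16, -3.94 and -1.49). On LF none was called by edgeR (44 at an unadjusted p under 0.05) and 1 higher by DESeq2. The response difference had 0 called higher and 3 lower (TMM 8 and 7, DESeq2 12 and 32, replicate block 0 lower, 1 mouse left out 0 to 4 and 0 to 20). Fos and Fosb were called lower with TMM and DESeq2, which their listing in opposite directions favoured in advance, and in the main fit both lay just above the threshold. Cyr61 on LF turned from 0.30 to -0.0026 without TSP1F/F LF replicate 3, within a range reaching 0.988. Scaling moved the median of all genes from -0.54 to -0.21 in TSP1ΔPf4, from 1.15 to 0.97 in TSP1F/F and from -0.38 to -0.10 between genotypes on AMLN (TMM). Fosb rested on 0 to 15 counts in TSP1F/F LF and TSP1ΔPf4 AMLN mice, which limits its precision.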
